A study of Mus musculus with 12 samples.

Results

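The connexin gap junction genes described here are Gja1, Gja4, Gja5, Gjb2, Gjb5, Gjb6 and Gjc1, chosen by name with earlier results of these data known. All 7 were found in the table of 50684 genes counted by RNA-Seq, and all 7 were among the 19408 genes with enough counts to be tested. RNA came from a part of the ear of 8-week-old female C57BL/6 mice that received intradermal injections of recombinant mouse cytokine. The 4 groups were PBS (the 5 µL vehicle alone), IL-17A (1 µg per ear), IL-36γ (1 µg per ear) and IL-17A + IL-36γ (1 µg of each), and ears were taken on day 4. All were mice of the wild-type strain. The study injected 5 mice per group and drew 3 per group at random for sequencing. The PBS group was injected too, so the comparisons measure the cytokines on top of the needle and vehicle, and the model is a short course of cytokine in a normal ear.

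Connexins are membrane proteins that assemble into rings, and rings of neighbouring cells dock to form gap junction channels that pass ions and small metabolites from cell to cell. In skin, Gja1 is the widely expressed connexin of basal and spinous keratinocytes, fibroblasts and vessels, Gjb2 and Gjb6 are known for their rise in thickened epidermis and for inherited disorders of skin and hearing, and Gjb5 belongs to the cluster of epithelial connexins found in differentiating epidermis. Gja4 and Gja5 are connexins of arterial endothelium, and Gjc1 is a connexin of smooth muscle and conductive tissue. The cytokines belong to the psoriasis network, in which IL-17A is made mainly by T cells and IL-36γ mainly by keratinocytes.

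The comparison with PBS asked how each cytokine, alone or together, changed these transcripts, and the comparisons among the injected groups asked what the second cytokine added. Against PBS, Gja1, Gjb2 and Gjb6 rose in ears given IL-36γ, alone or with IL-17A, and Gja5 rose in ears given both. After both cytokines the rise was 14.3-fold for Gjb6, 8.93-fold for Gjb2, 4.15-fold for Gja1 and 2.06-fold for Gja5, while Gjb5, Gja4 and Gjc1 did not pass the test in any of the 7 comparisons. No connexin passed after IL-17A alone. Gja1, Gjb2 and Gjb6 did when PBS replicate 1 was left out, but none of them did when IL-17A replicate 1 was left out, with smaller fitted changes.

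Libraries held 25293468 to 34759293 counted fragments, and the common coefficient of biological variation over the tested genes was 14.2%. Markers of basal and suprabasal keratinocytes, fibroblasts, endothelium and skeletal muscle were present in every library, and 5 cartilage markers of the pinna summed to 102 to 291 CPM, so the libraries hold the tissues of an ear. PBS replicate 1 stood apart with a summed level of 6 skeletal muscle markers of 176 CPM (counts scaled by TMM to a common library total), against 1991 and 1666 CPM in the other PBS libraries. It was also the highest PBS library for Gja1, Gjb2, Gjb6 and Gjb5, and the part of this library in the results is shown by leaving it out. IL-17A replicate 1 held 2236 CPM of 4 activated keratinocyte markers, against 635 and 578 CPM in the other IL-17A libraries, and was the highest IL-17A library for Gja1, Gjb2 and Gjb6. In bulk ear RNA, fewer cells of a type and less RNA per cell cannot be told apart.

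The genes lie on 5 chromosomes of the mm10 (GRCm38) genome. Gja1 spans chr10:56377330-56402513 on the plus strand, and Gjc1 spans chr11:102799579-102819700 on the minus strand. Gjb2 at chr14:57098600-57104702 and Gjb6 at chr14:57123303-57133611, both on the minus strand, are neighbours with 18600 bases between them. Gja4 at chr4:127311421-127314039 and Gjb5 at chr4:127354809-127358181, also on the minus strand, are separated by 40769 bases. Gja5 spans chr3:96904693-97077416 on the plus strand and shares 165 exonic bases with Gpr89 on the opposite strand. The setting for strand in the counting is not given in the sources used here, and 13.9% of the 76-base windows of Gja5 transcripts also occur in transcripts of Gpr89 or Zfp697, so the counts of Gja5 are uncertain. None of the windows of the other 6 genes occurred in the transcript of another gene.

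Gjb2 and Gjb6 encode related proteins, so it matters whether reads could be assigned to the wrong gene of the pair. The longest run that their coding sequences share is 20 bases, shown here because it is shorter than a read. It starts at base 214 of both coding sequences.
Gjb2 and Gjb6 shared run: tctcacatccggctctgggc

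Upstream sequences are shown for the 3 genes that rose after IL-36γ and, for contrast, for Gjb5, which did not. They are the 250 bases before the RefSeq start on the strand of the gene (GRCm38.p6), at chr10:56377050-56377299 for Gja1, chr14:57104703-57104952 for Gjb2, chr14:57133612-57133861 for Gjb6 and chr4:127358165-127358414 for Gjb5. RefSeq promoters were matched for 6 of the 7 genes, all but Gjc1. Capitals mark the matches to the motifs searched.
Gja1: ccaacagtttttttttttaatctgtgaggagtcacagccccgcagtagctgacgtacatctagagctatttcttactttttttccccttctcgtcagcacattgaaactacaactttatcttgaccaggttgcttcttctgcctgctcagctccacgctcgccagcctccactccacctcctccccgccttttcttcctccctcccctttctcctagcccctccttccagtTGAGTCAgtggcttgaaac
Gjb2: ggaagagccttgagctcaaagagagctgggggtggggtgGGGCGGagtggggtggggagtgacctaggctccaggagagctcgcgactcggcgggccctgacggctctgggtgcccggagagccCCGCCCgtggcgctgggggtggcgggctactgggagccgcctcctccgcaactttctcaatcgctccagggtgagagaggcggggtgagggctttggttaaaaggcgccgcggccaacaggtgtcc
Gjb6: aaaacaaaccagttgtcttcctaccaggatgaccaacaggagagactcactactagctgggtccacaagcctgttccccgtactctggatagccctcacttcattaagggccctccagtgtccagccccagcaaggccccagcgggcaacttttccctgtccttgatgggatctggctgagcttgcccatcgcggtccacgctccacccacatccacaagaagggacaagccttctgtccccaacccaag
Gjb5: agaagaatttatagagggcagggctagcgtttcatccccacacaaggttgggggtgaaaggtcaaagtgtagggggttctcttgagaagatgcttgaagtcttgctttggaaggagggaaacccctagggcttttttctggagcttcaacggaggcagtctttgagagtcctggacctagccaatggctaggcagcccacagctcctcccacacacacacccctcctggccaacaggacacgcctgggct

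Both strands were searched for the AP-1 motif (TGAGTCA or TGACTCA, each the reverse complement of the other), a classical NF-kB motif of 10 bases and a looser form that contains it, a C/EBP motif (TTGCGCAA), a STAT motif (TTCNNNGAA) and the GC box (GGGCGG). Gja1 held an AP-1 match from base -19 to -13 before the start, a motif present in 4.46% of the same 250-base windows of 32851 RefSeq promoters. Gjb2 held a pair of GC boxes, starting at -211 and at -126, while Gja4 and Gja5 held 1 each, and 32.7% of promoters hold a GC box. The STAT motif (7.02% of promoters), the NF-kB motifs (0.14% and 1.41%) and the C/EBP motif (0.164%) were not found in these 250-base windows of the 6 genes. Gjb6 and Gjb5 held none of the searched letters. A match of letters is a description and was not related to binding, since no binding was measured.

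**Figure D1:**
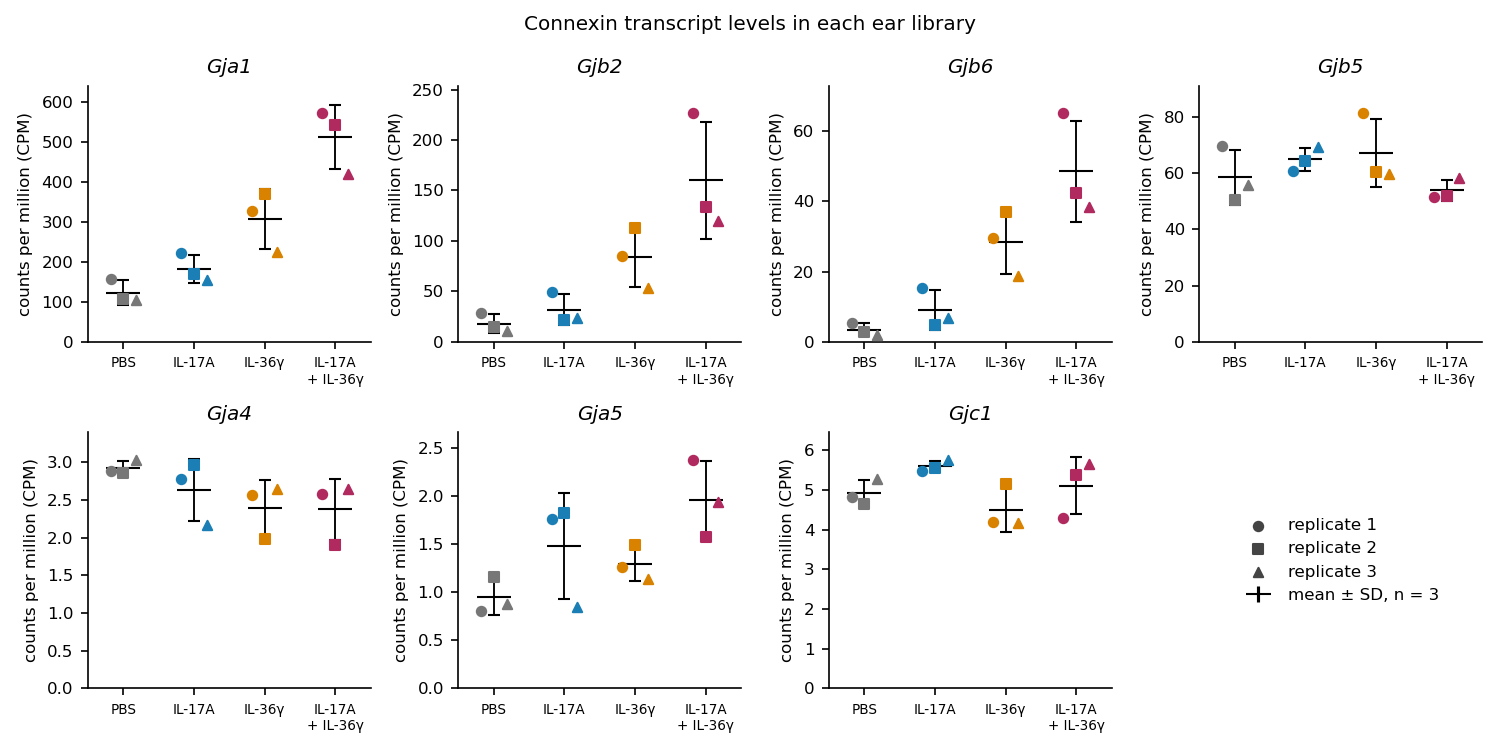
Level of each connexin transcript in CPM (vertical axes, from 0) in the 3 libraries of each group, with marker shape giving the replicate and bars the mean ± SD. Gja1, Gjb2 and Gjb6 have all IL-36γ and all IL-17A + IL-36γ libraries above all PBS libraries. The groups of Gjb5, Gja4 and Gjc1 lie closer together, though all PBS libraries of Gja4 are above its IL-36γ and IL-17A + IL-36γ libraries.

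Levels were compared between genes per length, as CPM per kilobase of exon (FPKM). The length took in all annotated exons of a gene, 10257 bases for Gja1 and 1721 for Gjb5. The order between genes depends on this choice, since in CPM the PBS mean was 123 for Gja1 and 58.5 for Gjb5. Which transcripts the ears used was not examined. In PBS ears Gjb5 was highest at 34.01 ± 5.71 FPKM (SD, n = 3), followed by Gja1 at 12.0 ± 2.93 FPKM and Gjb2 at 7.42 ± 3.98 FPKM, and the ranges of Gja1 and Gjb2 overlapped. Gja4 (1.74 FPKM), Gjb6 (1.26 FPKM) and Gjc1 (0.982 FPKM) followed, with the range of Gjb6 reaching over both of the others, and Gja5 was lowest at 0.165 FPKM. After IL-17A the order of means was Gjb5, Gja1, Gjb2, Gjb6, Gja4, Gjc1 and Gja5, and the ranges of Gja1 and Gjb2 overlapped there too. After IL-36γ the ranges of Gjb5 (39.1 FPKM), Gjb2 (34.9 FPKM) and Gja1 (29.9 FPKM) overlapped from each to the next. After IL-17A + IL-36γ Gjb2 stood first at 66.5 ± 24.1 FPKM, with a range that overlapped that of Gja1 at 49.8 ± 7.79 FPKM, and Gjb5 came after both at 31.3 ± 2.19 FPKM with no overlap. Gjb6 reached 18.2 ± 5.37 FPKM, above Gja4 and Gjc1, whose ranges overlapped, and Gja5 was lowest again at 0.342 FPKM.

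The makeup of the connexin transcripts shifted with these levels. The sums and shares depend on the same exon lengths. The summed level of the 7 genes was 49.6 to 72.5 FPKM in PBS libraries, 68.1 to 86.4 FPKM after IL-17A, 88.3 to 134 FPKM after IL-36γ and 142 to 207 FPKM after both. Gjb5 made up 59.6% ± 4.15 of the sum in PBS ears and 19.2% ± 4.67 after both cytokines. Gjb2 went from 12.4% ± 3.9 to 38.7% ± 5.94, Gjb6 from 2.10% ± 0.688 to 10.7% ± 0.955 and Gja1 from 20.8% ± 0.670 to 29.8% ± 3.51 (SD, n = 3 each).

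**Figure D2:**
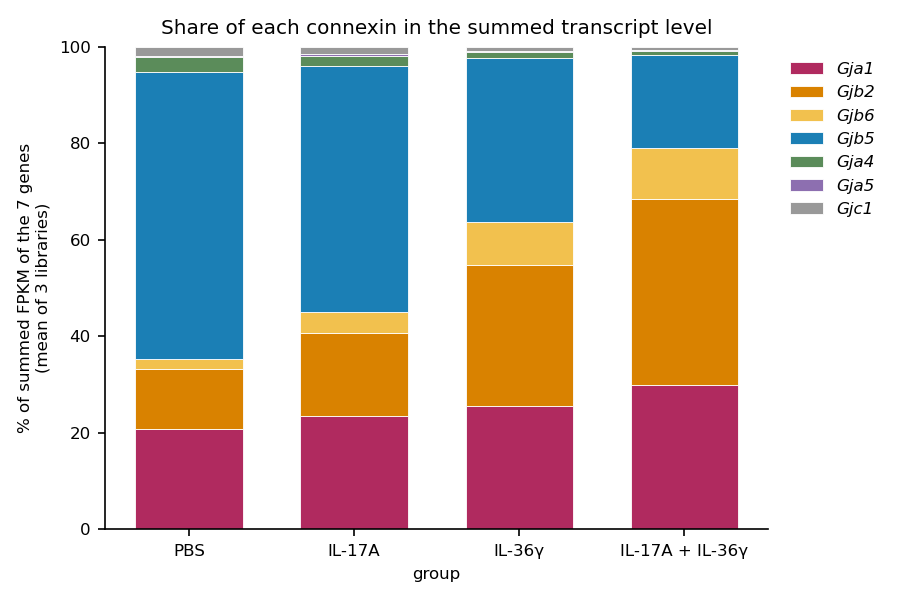
Share of each connexin in the summed FPKM of the 7 genes (vertical axis, percent, mean of 3 libraries) in the 4 groups. Gjb5 fills 59.6% of the bar in PBS ears and 19.2% after IL-17A + IL-36γ, where Gjb2 is the largest part at 38.7%.

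Gja1 held 158, 108 and 104 CPM in the 3 PBS libraries and 221, 170 and 154 CPM after IL-17A. After IL-36γ it held 328, 369 and 224 CPM, and after both cytokines 571, 542 and 420 CPM. Every IL-36γ library was above every PBS library, every library with both cytokines was above all others, and the IL-17A and PBS libraries overlapped. In edgeR's quasi-likelihood test over all tested genes, Gja1 rose by 1.32 ± 0.22 on the log2 scale (SE) after IL-36γ, which is 2.49-fold (adjusted p = 0.00123). After IL-17A + IL-36γ it rose by 2.05 ± 0.22 (adjusted p = 4.08e-05, 95% interval 2.98- to 5.78-fold).

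Gjb2 is the connexin most often named in thickened and wounded epidermis. Its PBS libraries held 28.7, 14.3 and 10.6 CPM and its IL-17A libraries 49.8, 22.01 and 24.1 CPM. The IL-36γ libraries held 85.4, 113 and 53.3 CPM and the libraries with both cytokines 226, 133 and 120 CPM. The order of the groups was that of Gja1, with overlap between PBS and IL-17A and none between either of these and the groups given IL-36γ. Gjb2 rose by 2.23 ± 0.43 (log2, SE) after IL-36γ (4.69-fold, adjusted p = 0.00329) and by 3.16 ± 0.45 after both cytokines (8.93-fold, 95% interval 4.56 to 17.5, adjusted p = 0.000205).

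Gjb6, the neighbour of Gjb2 and its partner in mixed channels, was scarce in control ears. The PBS libraries held 5.48, 2.69 and 1.97 CPM and the IL-17A libraries 15.4, 4.75 and 6.80 CPM. The IL-36γ libraries held 29.7, 36.9 and 18.7 CPM and the libraries with both cytokines 65.0, 42.3 and 38.4 CPM. The groups given IL-36γ again lay wholly above the other groups. Gjb6 had the largest fitted change of the 7 genes, 3.06 ± 0.47 (log2, SE) after IL-36γ (8.36-fold, adjusted p = 0.000832) and 3.84 ± 0.48 after both (14.3-fold, 95% interval 6.97 to 29.2, adjusted p = 9.78e-05).

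Gjb5 is an epithelial connexin like Gjb2 and Gjb6 but did not pass in any comparison. It held 69.5, 50.5 and 55.7 CPM in PBS libraries, 60.9, 64.5 and 69.2 CPM after IL-17A, 81.2, 60.6 and 59.8 CPM after IL-36γ and 51.4, 51.9 and 58.2 CPM after both. Each cytokine group overlapped the PBS group. Its log2 fold change against PBS was 0.15, 0.20 and -0.12 after IL-17A, IL-36γ and both, and the 95% interval after both cytokines ran from -0.41 to 0.17 (adjusted p = 0.484).

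The vascular connexin Gja4 held 2.88, 2.86 and 3.03 CPM in PBS libraries and 1.90 to 2.96 CPM in the other 9. The IL-36γ libraries held 1.98 to 2.65 CPM and the libraries with both cytokines 1.90 to 2.64 CPM. Both ranges lay below all PBS libraries, and the share of tested genes placed so is not given here. The log2 fold changes of -0.29 (95% interval -0.68 to 0.10) and -0.30 (-0.69 to 0.09) did not pass, with adjusted p of 0.244 and 0.196. Gja5, the other connexin of arterial endothelium, held 0.803, 1.16 and 0.879 CPM in PBS libraries and 2.38, 1.57 and 1.94 CPM after both cytokines, with no overlap. It held 1.77, 1.83 and 0.845 CPM after IL-17A and 1.26, 1.49 and 1.14 CPM after IL-36γ, and these groups overlapped PBS.

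Gja5 rose by 1.05 ± 0.28 (log2, SE) after both cytokines (95% interval 1.35- to 3.16-fold, adjusted p = 0.0105). The study shows Gja5 among genes it picked for being raised by the combination in these same libraries, so this is not independent evidence of its direction. Its counts were few, from 21 to 61 per library, against 847 to 1232 for the overlapping Gpr89. Gpr89 itself rose by 0.23 ± 0.07 (log2, SE) after both cytokines (adjusted p = 0.0184), Zfp697 had a log2 fold change of -0.09 (adjusted p = 0.7), and the part of shared reads in the rise of Gja5 was not tested.

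Gjc1, the connexin of smooth muscle, held 4.82, 4.64 and 5.27 CPM in PBS libraries and 5.49, 5.55 and 5.75 CPM after IL-17A, and 4.17 to 5.65 CPM in the other 6 libraries. The IL-17A libraries were all above the PBS libraries, as 19.6% of tested genes were. Its log2 fold change was 0.19 (95% interval -0.11 to 0.49, adjusted p = 0.372) after IL-17A and 0.06 (95% interval -0.24 to 0.36, adjusted p = 0.754) after both.

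**Figure D3:**
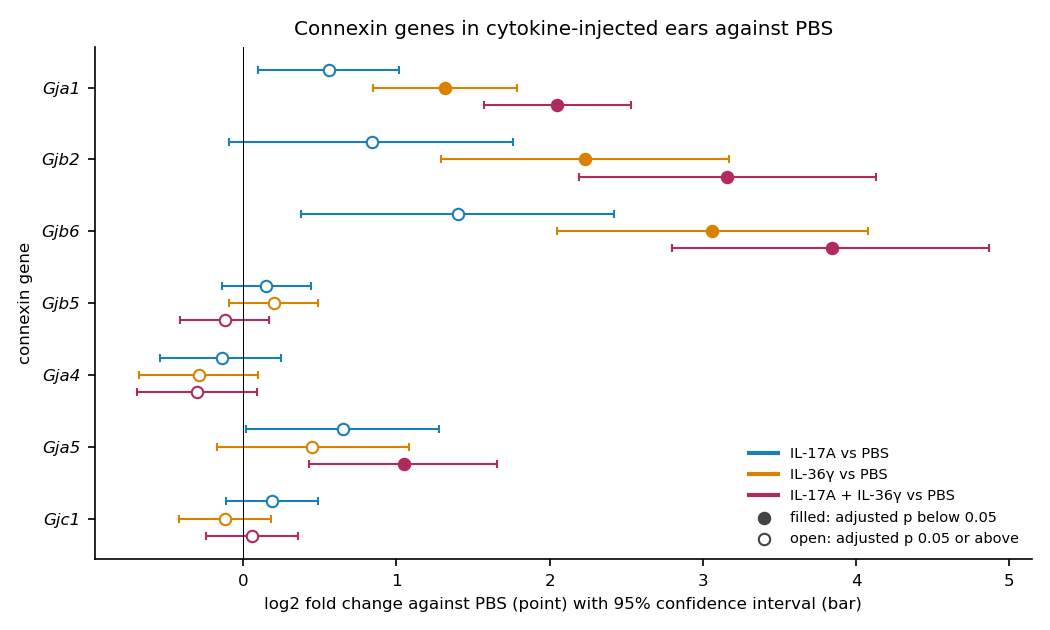
Fitted log2 fold change against PBS (horizontal axis) with its 95% confidence interval for the 7 connexin genes after IL-17A, IL-36γ and both, with filled points for adjusted p below 0.05. Filled points appear for Gja1, Gjb2 and Gjb6 after IL-36γ and after both cytokines and for Gja5 after both, and all points of IL-17A alone are open.

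As counts against the background of all genes, 3 of 7 connexin genes rose after IL-36γ, where 17.3% of the 19408 tested genes rose. After both cytokines 4 of 7 rose, where 23.7% of tested genes did. The members were chosen with earlier results of these data known, so these shares are a description. Of the 10 other connexins and pannexins tested, 1 rose after both. All changes of the called members were also past a log2 fold change of 1, a size that 5.11% and 7.35% of tested genes passed upwards. Gja5 was only just past it at 1.05, and was at 0.9 when libraries were scaled by their totals alone. All libraries of the cytokine group were above all PBS libraries for the same 3 genes after IL-36γ and the same 4 after both, where this held for 22.4% and 27% of tested genes. The median log2 fold change of the 7 genes was 0.45 and 1.05, against -0.02 and -0.03 over all tested genes. When libraries were scaled by their totals alone, raised genes were 33.3% and not 61.0% of those called after IL-36γ, and 35.1% and not 53.2% after both, so the shares of raised genes depend on the scaling, while these members passed under each scaling tried.

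After IL-17A alone 0 of 7 connexin genes passed in edgeR, where 10.9% of tested genes did. At an unadjusted p below 0.05 there were 3, Gja1, Gja5 and Gjb6, where 31% of all tested genes were. DESeq2's likelihood ratio test called 1 of the 7, Gjb6 (adjusted p = 0.0477), where it called 4576 of the 21827 genes it tested. The fitted values were 1.40 ± 0.47 for Gjb6 (log2, SE, adjusted p = 0.0716), 0.84 ± 0.42 for Gjb2 (adjusted p = 0.202), 0.65 ± 0.29 for Gja5 (adjusted p = 0.148) and 0.56 ± 0.21 for Gja1 (adjusted p = 0.0997). Without PBS replicate 1, the library that was high for Gja1, Gjb2 and Gjb6 and low for muscle markers, these became 1.94 for Gjb6 (adjusted p = 0.0202), 1.36 for Gjb2 (0.0389) and 0.78 for Gja1 (0.0221), all passing. Without IL-17A replicate 1 they were 0.73 for Gjb6 (adjusted p = 0.356), 0.34 for Gjb2 (0.684) and 0.36 for Gja1 (0.379), none passing. Without IL-17A replicate 3, Gja5 passed alone at 0.92 (adjusted p = 0.0476), and without IL-17A replicate 2 it was 0.43 (adjusted p = 0.423).

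Adding IL-36γ to IL-17A raised 3 of 7 connexin genes, where 15.1% of tested genes rose. Gja1 was higher by 1.49 ± 0.22 (log2, SE, 2.81-fold, adjusted p = 0.00062), Gjb2 by 2.32 ± 0.43 (5.00-fold, adjusted p = 0.00216) and Gjb6 by 2.44 ± 0.44 (5.42-fold, adjusted p = 0.00189). All libraries with both cytokines lay above all IL-17A libraries for these 3 genes, as they did for 23% of tested genes. Gjb5 was fitted the other way, at -0.27 (95% interval -0.56 to 0.02, adjusted p = 0.145).

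Adding IL-17A to IL-36γ gave 0 of 7 connexin genes past the test in edgeR, where 4 of 19408 tested genes passed, which is 0.0206%. At an unadjusted p below 0.05 there were 3, Gja1, Gjb2 and Gjb5, where 15.1% of all tested genes were. DESeq2 called 0 of the 7, where it called 964 of the 19254 genes it tested. The libraries with both cytokines were all higher than the IL-36γ libraries for Gja1, Gjb2, Gjb6 and Gja5, which held for 9.33% of tested genes. The log2 differences were 0.74 (95% interval 0.27 to 1.20) for Gja1, 0.93 (0.04 to 1.82) for Gjb2, 0.77 (-0.12 to 1.66) for Gjb6 and 0.59 (-0.01 to 1.19) for Gja5, with adjusted p between 0.168 and 0.394. For Gjb5 the log2 difference was -0.32 (95% interval -0.61 to -0.03, adjusted p = 0.290).

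Between the single cytokines, Gjb6 was higher after IL-36γ than after IL-17A by 1.67 ± 0.43 (log2, SE, adjusted p = 0.0388) and Gja1 by 0.76 ± 0.21 (adjusted p = 0.0496), so 2 of 7 passed, where 4.37% of tested genes rose. Gjb2 was higher by 1.39 ± 0.42 (adjusted p = 0.0618). The IL-36γ libraries lay above all IL-17A libraries for these 3 genes, as for 15.6% of tested genes, but only just, with 224 against 221 CPM at their nearest for Gja1, 53.3 against 49.8 CPM for Gjb2 and 18.7 against 15.4 CPM for Gjb6. These calls hung on single libraries. Without IL-17A replicate 2, IL-17A replicate 3, IL-36γ replicate 1 or IL-36γ replicate 2 none of the 7 passed, with log2 differences of 0.60 to 0.72 for Gja1 and 1.37 to 1.65 for Gjb6, and without IL-17A replicate 1 Gjb2 passed at 1.88 (adjusted p = 0.0348). Scaled by totals alone, raised genes were 65.7% and not 54.8% of those called, and Gjb2 passed at 1.42 (adjusted p = 0.0467).

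The interaction, the change by IL-17A with IL-36γ minus its change without, asked whether the cytokines together gave more or less than the product of their single effects. In edgeR 0 of 7 connexin genes passed, where 0.551% of tested genes did. Under an unadjusted p of 0.05 there was 1 (Gjb5), where 22.5% of tested genes were. DESeq2 called 0 of the 7, where it called 2486 of the 20541 genes it tested. The values were 0.18 (95% interval -0.48 to 0.83) for Gja1, 0.09 (-1.19 to 1.37) for Gjb2, -0.62 (-1.97 to 0.72) for Gjb6 and -0.06 (-0.92 to 0.80) for Gja5 on the log2 scale. For Gjb5 the interaction was -0.47 (-0.88 to -0.06, adjusted p = 0.176), and without PBS replicate 1 it passed at -0.61 (adjusted p = 0.0487). The intervals of Gjb2 and Gjb6 were the widest of these 5.

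Gja1, Gjb2 and Gjb6 moved together within the groups as well. In each of the 4 groups the same library was the highest for all 3 genes, namely replicate 1 of PBS, IL-17A and IL-17A + IL-36γ and replicate 2 of IL-36γ. In 3 of these 4 groups that library also held the most RNA of the 4 activated keratinocyte markers, PBS being the exception, and the part of this in the result was not tested.

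The ratio of Gjb2 to Gjb6 was not the same in every group. In CPM it was 5.24, 5.33 and 5.36 in the PBS libraries, 3.24, 4.63 and 3.55 after IL-17A, 2.88, 3.07 and 2.85 after IL-36γ and 3.48, 3.15 and 3.12 after both. All PBS libraries were higher than all 9 others, and the fitted fold change of Gjb6 was larger than that of Gjb2 in each cytokine group. This ratio was chosen after its values were seen and is given without a test.

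**Figure D4:**
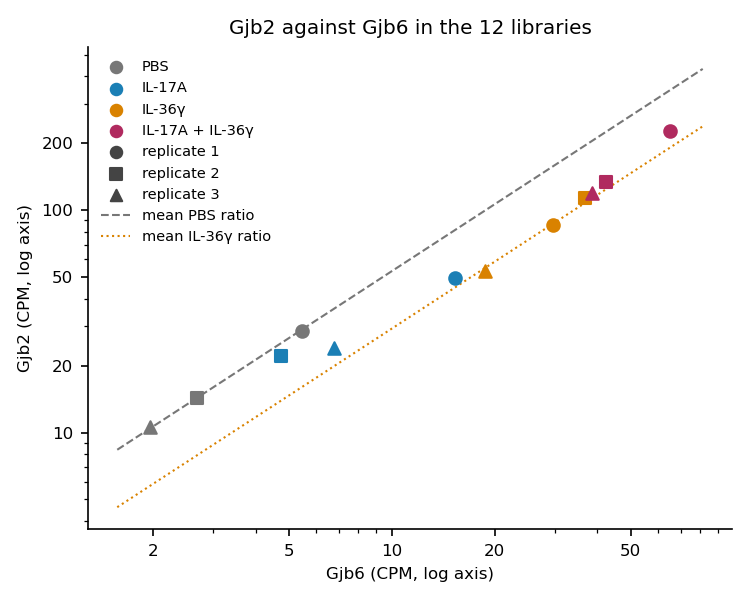
Level of Gjb2 (vertical axis) against Gjb6 (horizontal axis) in CPM, both on log axes, in the 12 libraries, with colour for the group, shape for the replicate and lines for the mean ratio of the PBS and the IL-36γ libraries. The PBS libraries lie on the line of ratio 5.31, the IL-36γ libraries on that of 2.93 and the libraries with both cytokines slightly above the latter.

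Markers of other cell types moved with the same groups. The 6 basal keratinocyte markers summed to 9248 to 11130 CPM in PBS, 12130 to 14710 CPM after IL-17A, 13020 to 15770 CPM after IL-36γ and 15850 to 19780 CPM after both. After both 2 rose (Krt5 and Krt14) and 2 fell (Krt15 and Col17a1), with a median log2 fold change of -0.13 over the list. The basal sum therefore does not speak for every marker in it. The 6 suprabasal markers summed to 10890 to 15100 CPM in PBS, 10780 to 14940 CPM after IL-17A, 15780 to 21470 CPM after IL-36γ and 17950 to 19540 CPM after both, where 1 rose and 1 fell. The 4 activated keratinocyte markers Krt6a, Krt6b, Krt16 and Krt17 all rose after both, from 325 to 526 CPM in PBS to 6261 to 10590 CPM, with 578 to 2236 CPM after IL-17A and 2080 to 5487 CPM after IL-36γ. All 6 proliferation markers rose after IL-36γ and after both, with sums of 320 to 645 CPM in PBS, 563 to 703 CPM after IL-17A, 1087 to 1258 CPM after IL-36γ and 1439 to 1635 CPM after both.

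Immune cell markers rose in the same groups. The 6 neutrophil markers summed to 14.6 to 23.1 CPM in PBS, 28.0 to 65.5 CPM after IL-17A, 60.2 to 89.6 CPM after IL-36γ and 101 to 203 CPM after both, with 2, 4 and 6 of 6 raised against PBS. All 6 macrophage markers rose against PBS in each of the 3 cytokine groups, from sums of 483 to 558 CPM to 720 to 1002 CPM after IL-17A, 1137 to 1249 CPM after IL-36γ and 1032 to 1131 CPM after both.

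After both cytokines markers of several other cell types fell. All 5 pericyte markers fell (313 to 334 CPM summed in PBS, 279 to 346 CPM after IL-17A, 215 to 275 CPM after IL-36γ and 171 to 208 CPM after both), as did all 5 adipocyte markers (155 to 197, 153 to 312, 82.3 to 175 and 51.4 to 95.2 CPM in the same order) and all 5 cartilage markers (178 to 270, 174 to 291, 146 to 193 and 102 to 137 CPM). Of 6 fibroblast markers 3 fell (5674 to 6362, 5357 to 8681, 4618 to 4855 and 4061 to 4615 CPM), and of 5 smooth muscle markers 2 fell (97.5 to 164, 162 to 182, 121 to 169 and 80.4 to 127 CPM). After IL-36γ alone 2 pericyte markers and 1 fibroblast marker fell, 1 smooth muscle marker rose, and none of the adipocyte and cartilage markers passed. The 6 skeletal muscle markers passed in none of the 3 comparisons with PBS, with sums of 176 to 1991 CPM in PBS and 101 to 727 CPM after both. Of 6 hair follicle markers tested 1 fell in each of the 3. The part of these cell types in the changes of the connexins was not tested.

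Per 1000 CPM of the basal keratinocyte markers of the same library, Gja1 stood higher in the groups given IL-36γ. The markers in this sum did not all move in 1 direction. This ratio was 11.2 to 14.2 in PBS, 12.7 to 15.0 after IL-17A, 17.2 to 24.3 after IL-36γ and 26.5 to 30.8 after both. For Gjb2 it went from 1.14 to 2.58 in PBS to 4.09 to 7.46 after IL-36γ and 7.57 to 11.4 after both, and for Gjb6 from 0.213 to 0.492 in PBS to 1.44 to 2.43 and 2.41 to 3.29. Per 1000 CPM of suprabasal markers the same 3 genes were likewise without overlap between PBS and both cytokines, with Gja1 at 9.41 to 10.5 against 23.4 to 29.2.

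Against the activated keratinocyte markers the ratios ran differently. Gja1 was at 205 to 371 per 1000 CPM in PBS and 53.9 to 78.5 after both, and Gjb2 at 27.3 to 67.5 and 19.2 to 21.4, lower without overlap. Gjb6 was 5.12 to 12.9 in PBS and 6.13 to 6.14 after both, with overlap. The ratios are descriptions of bulk RNA, and the part of cell makeup in the changes of the connexins was not tested.

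The vascular connexins Gja5 and Gja4 were set beside endothelial and arterial markers. The 8 endothelial markers summed to 183 to 220 CPM in PBS, 214 to 244 CPM after IL-17A, 186 to 216 CPM after IL-36γ and 175 to 184 CPM after both. After IL-17A 1 of the 8 rose and 0 fell, and after both 5 of 8 fell and 0 rose. Of 7 arterial markers 4 fell and 0 rose after both, with sums of 209 to 227 CPM in PBS, 228 to 240 CPM after IL-17A, 195 to 214 CPM after IL-36γ and 182 to 191 CPM after both. Per 1000 CPM of endothelial markers Gja5 was 4.38 to 5.28 in PBS and 8.98 to 13.1 after both, while Gja4 was 13.0 to 15.7 and 10.9 to 14.4, with overlap. After IL-36γ alone Gja4 was 10.6 to 12.8 on this scale, just below PBS without overlap. None of the endothelial and arterial markers was left out for low counts. Which cells gave the Gja5 counts cannot be read from bulk RNA, and the part of endothelial content in its change was not tested.

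**Figure D5:**
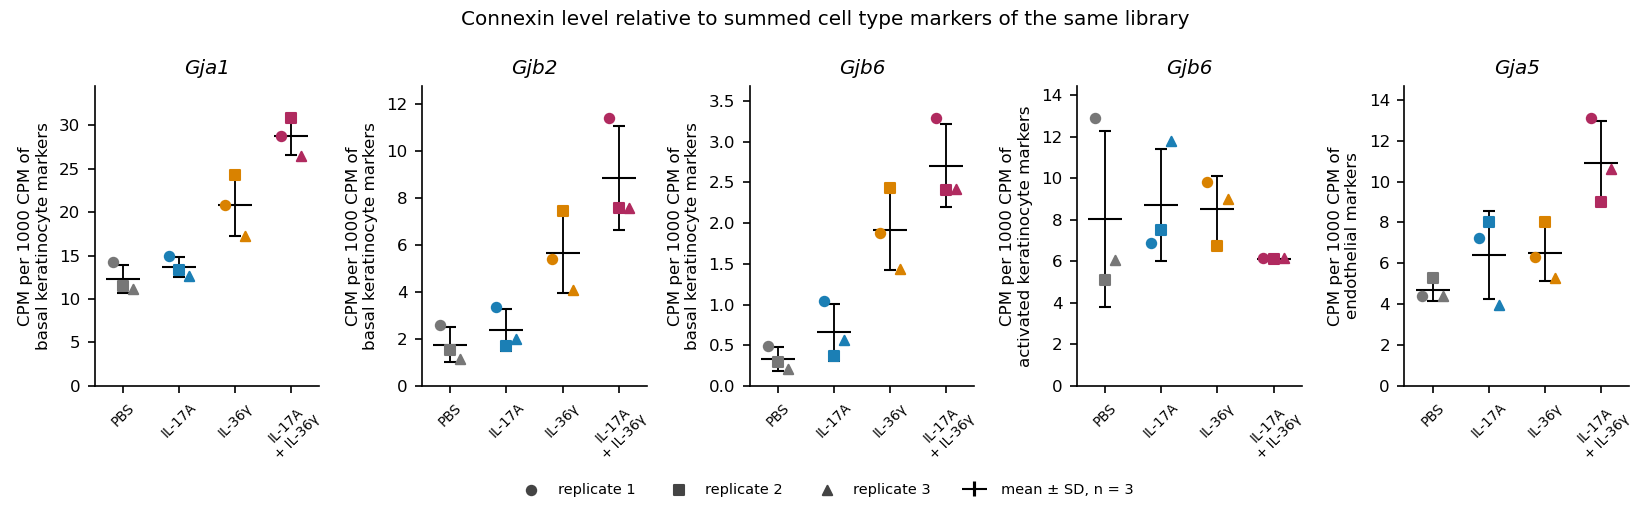
CPM of Gja1, Gjb2, Gjb6 and Gja5 per 1000 CPM of the summed cell type markers named on each vertical axis, by library, with mean ± SD (n = 3). Relative to basal keratinocyte markers Gja1 stands at 11.2 to 14.2 in PBS and 26.5 to 30.8 after both cytokines, relative to activated keratinocyte markers Gjb6 overlaps between these groups, and relative to endothelial markers Gja5 stands at 4.38 to 5.28 and 8.98 to 13.1.

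Of the 16 other connexins and pannexins, 10 had enough counts to be tested, and the other 6 held 0 to 7 counts per library. Pannexins form channels of a similar shape that open to the outside of the cell. After both cytokines 1 of the 10 rose and 1 fell, against 23.7% and 20.9% of all tested genes. Panx1, the widely expressed pannexin, rose by 0.46 ± 0.10 (log2, SE, adjusted p = 0.00377), from 21.6 ± 1.93 CPM in PBS to 29.7 ± 1.28 CPM (SD, n = 3 each). Gjc3, a connexin of myelinating glia, fell by 1.05 ± 0.21 on the log2 scale (adjusted p = 0.00173), from 4.49 ± 0.139 to 2.17 ± 0.696 CPM. All 5 Schwann cell markers fell in the same comparison, from a sum of 168 to 218 CPM in PBS to 105 to 137 CPM, with 175 to 221 CPM after IL-17A and 150 to 188 CPM after IL-36γ, and their part in the fall of Gjc3 was not tested.

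Panx1 also rose after IL-36γ alone, by 0.33 ± 0.10 (adjusted p = 0.0329), the 1 gene of the 10 that rose there, where 17.3% of all tested genes did. After IL-17A 0 of the 10 genes passed in edgeR, where 10.9% of all tested genes did. Beside Gjb2 and Gjb6 on chromosome 14 lies Gja3, the lens connexin, 40499 bases from Gjb2. Gja3 did not pass after both cytokines against PBS (log2 fold change -0.96, adjusted p = 0.0897, with 2 to 23 counts per library). On these few counts it was lower after both than after IL-17A, with a log2 difference of -1.60 ± 0.42 (SE, adjusted p = 0.0125). In that comparison 3430 of 19408 tested genes fell.

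Connexins depend on proteins that anchor, modify and degrade them, and 25 such genes were all tested. After both cytokines 4 rose and 5 fell, where 23.7% of all tested genes rose and 20.9% fell, and their median log2 fold change was -0.04, against -0.03 over all genes. The scaffold Tjp1, which binds the tail of the Gja1 protein, rose by 0.21 ± 0.06 (log2, SE, adjusted p = 0.0180). The kinases Akt1 (0.40 ± 0.10) and Prkcd (0.28 ± 0.07) rose, whereas the kinase Prkca fell by 0.60 ± 0.13 on the log2 scale. Tsg101, a sorting factor in the degradation of membrane proteins, rose by 0.21 ± 0.07. The ubiquitin ligase Nedd4, which targets the Gja1 protein for removal, fell by 0.43 ± 0.07 (adjusted p = 0.000587). The junction protein Cgnl1 fell by 0.92 ± 0.09 (adjusted p = 3.1e-05), the actin binder Dbn1 by 0.53 ± 0.16 and Cnst, which recruits connexins for transport, by 0.43 ± 0.12. After IL-36γ 3 of the 25 rose and 4 fell, where 17.3% of all tested genes rose and 11.1% fell. After IL-17A 1 rose and 0 fell, where 10.9% of all tested genes passed in either direction.

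The genes whose log2 CPM followed each connexin most closely over the 12 libraries were sought among 15261 protein-coding genes. These values rest mainly on the differences between the groups, and the libraries share depth and makeup, so they are given as a description. Gja1 was followed most closely by Eno1, a glycolytic enzyme (Pearson's r = 0.991), then Ahsa1 (0.986) and Fabp5, an epidermal fatty acid binding protein (0.985). Gjb2 was followed by Teddm3 (0.992), Glrx (0.992) and its neighbour Gjb6 (0.991). Gjb6 was followed by Klk13 (0.994), Atp13a4 (0.993) and Casp14, a protease of cornifying keratinocytes (0.992). Values for the other connexins were lower. The closest to Gjb5 was Scamp1 (0.958), the closest to Gja4 was Dscam (0.940) and the closest to Gjc1 was Scfd1 (0.847). For Gja5 it was Nfil3 (0.937).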

How the data were processed

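RNA of 12 mouse ears (3 mice in each of 4 groups) was sequenced by the authors with paired reads of 76 cycles from ribosome-depleted stranded libraries, aligned to mm10 with STAR 2.5.2b and counted per gene with featureCounts of Subread 1.5.1. The setting for strand and the release of the annotation are not given in the sources used here. The deposited table holds raw counts, 1 column per mouse. The authors' comparison tables (fold changes and p-values from DESeq2 1.30.0) were used for gene symbols only.

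Libraries were grouped by the sample labels. In R 4.3.3, edgeR 4.0.16 was applied with filterByExpr (minimum count 10), TMM scaling and the quasi-likelihood test in 1 fit of the 4 group means. P-values were adjusted by Benjamini-Hochberg over all 19408 tested genes, and a gene passed at an adjusted p below 0.05. The stricter count also required an absolute log2 fold change above 1, the study's size. CPM used TMM library sizes, and FPKM divided CPM by the exon length of the GRCm38 annotation. P-values measure the spread between mice. No pair of libraries in a group was a copy, with a chi-square per gene of 7.09 to 64.0. Alternatives were DESeq2 1.42.0, other scalings, other filters, a replicate block, the compared groups alone and each library left out.

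The named genes were the 7 members in every comparison, the other connexins, pannexins and partner genes past the test after both cytokines, and the 3 genes most like each member. The members, lists and rule were chosen with earlier results of these data known. Gja3, the genes that share sequence with Gja5 and the ratio of Gjb2 to Gjb6 were added after values were seen. Sequences come from RefSeq (GRCm38.p6), and proteins were not analysed here.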

Additional observations from a re-analysis of the deposited data

How the results depend on the processing

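Members past the test after IL-36γ against PBS (3), after both cytokines against PBS (4) and after both against IL-17A (3) passed under all 14 alternatives of each, and Gjb5 joined the last with the compared groups alone (adjusted p = 0.0343). Over 721 single-gene values under alternatives, 694 kept their side of the threshold, 9 lost it, 18 gained it and 0 reversed, and 33 values that did not pass changed sign. For IL-17A against PBS the count of 0 became 1 with no filter on low counts (Gjb6), 1 in DESeq2 (Gjb6) and 3 with a replicate block (Gja1, Gjb2 and Gjb6), and it ran from 0 to 3 with a library left out. For both against IL-36γ it became 1 with no filter (Gja1, adjusted p = 0.0483), and stayed 0 with each library left out. For IL-36γ against IL-17A the 2 became 1 with the fold change threshold (Gjb6) and ran from 0 to 3 with a library left out, and Gjb2 passed in 6 of the 14 alternatives. The interaction ran from 0 to 1. The causes were not tested.

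The sample labels number the replicates but name no pairing, and whether libraries of the same number belong together was not tested. Between groups, the correlation of deviations for the same number ran from -0.20 to 0.35 (median 0.10), with 9 of 18 pairs above 0.1. For different numbers it ran from -0.50 to 0.36 (median -0.05), with 9 of 36 pairs above 0.1. The replicate block moved the count of all genes from 2120 to 3360 for IL-17A against PBS and from 107 to 883 for the interaction. DESeq2 called 4576, 3430, 964 and 2486 genes for IL-17A against PBS, IL-36γ against IL-17A, both against IL-36γ and the interaction, where edgeR called 2120, 1548, 4 and 107. With no filter the last of these were 281 and 462. With a library left out, IL-17A against PBS gave 21 (without PBS replicate 3) to 4571 genes (without PBS replicate 1), IL-36γ against PBS 2987 (without PBS replicate 3) to 7332, both against PBS 6412 to 9716, both against IL-17A 4114 (without IL-17A replicate 2) to 5725, IL-36γ against IL-17A 201 (without IL-17A replicate 2) to 1186, both against IL-36γ 0 to 209 (without IL-36γ replicate 2) and the interaction 1 (without IL-36γ replicate 1) to 1534 (without PBS replicate 1). With the compared groups alone IL-17A against PBS gave 20. Scaling by totals alone gave 3 for the interaction and 0 for both against IL-36γ, DESeq2-type size factors gave 38 for the interaction, and scaling by totals shifted the median log2 fold change over all genes against PBS to -0.13, -0.16 and -0.17 after IL-17A, IL-36γ and both, from 0.04, -0.02 and -0.03. Raised genes were then 19.6% and not 68.1% of those called after IL-17A.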
